A study of Arabidopsis thaliana with 8 samples.

Results

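Both Arabidopsis thaliana lines that carry an artificial transcription factor were set against both control lines under salt. The comparison takes 4 of the 8 libraries of the series, those from plants at 75 mM NaCl. The 3F-VP16 lines, T31-5 and T43-11, express a fusion labelled 3F-VP16, in which VP16 is the transcription activation domain of a herpes simplex virus protein, and their labels describe them as salt tolerant. The controls were Col-0, the wild type, and an empty vector line that expresses VP16 alone. Each library is total RNA of whole plants of 1 line, so the lines stand in as the 2 replicates of each group, and the labels do not say whether they came from separate cultures or how many plants were pooled. The sources used here do not give the promoter of the fusion, the sequence that 3F binds, how the 2 lines differ or the age of the plants. The comparison asks in which transcripts salt-tolerant lines differ from salt-grown plants without the fusion.

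Salt stress acts on roots as well as leaves. Root hairs, the tubular outgrowths of root epidermal cells, take up water and ions, and their walls are built with extensins, which are rod-like glycoproteins that class III peroxidases can cross-link. Iron-starved roots induce a set of basic helix-loop-helix transcription factors together with the reductase, transporter and coumarin enzymes that mobilise iron from soil. Both gene groups are mostly active in root cells.

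Reads on genes came to 22820814 in T31-5 and 21159862 in T43-11, against 13007480 in Col-0 and 21791327 in the empty vector line. Levels are given as CPM, the library-size-scaled count over the sum of reads on genes. Where a gene has 0 reads, counting error alone would still permit 3, equal to 0.131 to 0.231 CPM in these libraries. The added row T43 had 33.6 CPM in T43-11, 0.0438 CPM (1 read) in T31-5, and 0 reads in Col-0 and in the empty vector line. The added row T31 had 2.94 CPM (95% exact Poisson interval 2.27 to 3.73) in T31-5 and 27.7 CPM in T43-11, against 0 reads in Col-0 and 3.12 CPM (2.42 to 3.96) in the empty vector line. On the T31 row the interval of T31-5 overlapped that of the empty vector line, so T31-5 below means the library labelled so. The sources used here do not say what the 2 rows measure.

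The 2 libraries of the 3F-VP16 lines were closer to each other than any other pair, and Col-0 stood apart from all 3 transgenic lines. Genes averaging 5 CPM or more over the 4 libraries, called expressed here, numbered 14909, and 11 of them differed 2-fold or more between T31-5 and T43-11. Between T43-11 and the empty vector line there were 39, and between T31-5 and the empty vector line 64. The same count was 597 for T31-5 and Col-0, 457 for T43-11 and Col-0, and 279 for Col-0 and the empty vector line. The 2 control lines therefore differed from each other at more genes than the empty vector line differed from either 3F-VP16 line. T31-5 and T43-11 nevertheless differed by more than sampling noise, with a mean chi-square per gene of 4.75, where noise alone gives about 1, and they were kept as separate replicates.

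Some 0 mM libraries go against what their labels would separate. The library labelled T43-11 at 0 mM had 0 of the 14909 genes 2-fold apart from T43-11 at 75 mM, whereas the salt levels of T31-5 were 2-fold apart at 671 genes, those of Col-0 at 981 and those of the empty vector line at 710. The salt-induced gene COR15A (AT2G42540), which has a close copy in COR15B, had 1.104 CPM in T31-5 and 46.3 CPM in T43-11 at 0 mM, against 1.21 CPM in Col-0 and 1.34 CPM in the empty vector line at 0 mM. P5CS1, a proline synthesis gene, had 137 and 862 CPM in these 3F-VP16 lines at 0 mM, against 169.9 and 137 CPM in the controls. At 0 mM T31-5 and the empty vector line also had 0 genes 2-fold apart. The added row T43 had 32.5 CPM in the library labelled T43-11 at 0 mM, and 0 reads in T31-5, Col-0 and the empty vector line at 0 mM. The added row T31 had 26.8 CPM in T43-11 at 0 mM, 4.88 CPM in T31-5, 4.44 CPM in the empty vector line and 0 reads in Col-0. Whether the 0 mM labels hold, for line or for salt level, was not tested. The comparison at 75 mM uses none of the 0 mM libraries, and all that is said of 0 mM below is of libraries as labelled. COR15A and P5CS1 were picked here after their values were seen.

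**Figure D1:**
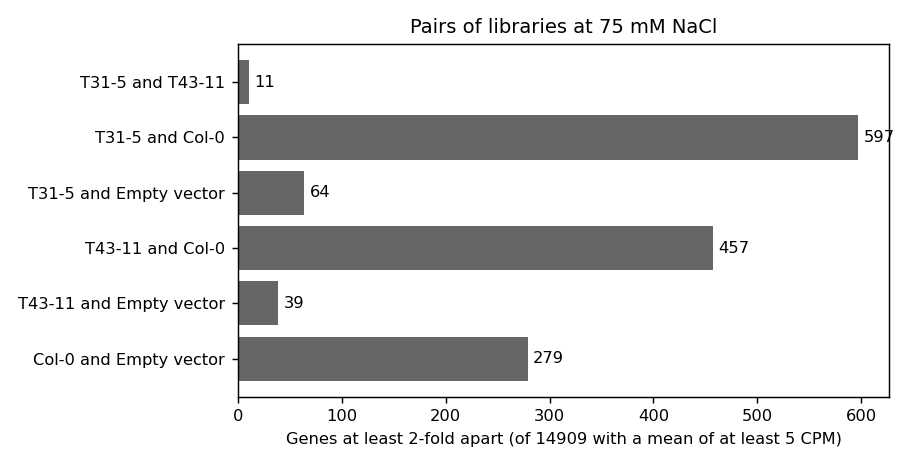
Number of genes at least 2-fold apart (x axis, of 14909 expressed genes) in each of the 6 pairs of libraries at 75 mM NaCl (y axis). The pair of 3F-VP16 lines has 11 such genes and the pairs that contain Col-0 have 279 to 597.

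No gene passed the test of the 3F-VP16 lines against the controls. In edgeR's quasi-likelihood test 0 of 20171 genes were higher and 0 lower at an adjusted p of 0.05 (0% of genes each, smallest adjusted p = 0.644). Before adjustment, 718 genes (3.56%) were higher and 812 (4.03%) lower with p under 0.05. DESeq2 on the same 4 libraries called 31 genes higher (0.154%) and 49 lower (0.243%). Leaving out the empty vector line gave 1487 higher and 1435 lower genes in edgeR, and at 91.4% of these higher genes and 81.2% of these lower genes the empty vector library lay nearer to the 3F-VP16 lines than to Col-0. Leaving out Col-0 gave 22 higher and 15 lower genes, and without T31-5 or without T43-11 the counts were 0. The shares of 91.4% and 81.2% are over genes called with Col-0 as the only control, a choice that favours such shares. The share over all genes was not counted. An exact permutation test of 2 against 2 libraries cannot go below a two-sided p of 0.333. The genes below are therefore described by how far the groups lie apart.

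At 43 genes both 3F-VP16 libraries lay at least 1.5-fold above both controls (0.288% of the 14909 genes), and at 33 genes at least 1.5-fold below both (0.221%). Counts at 2-fold were 21 (0.141%) and 8 (0.0537%). The 43 higher genes included 8 members of the list of extensins, 6 of the list of class III peroxidases and 5 of the list of root hair genes. The 33 lower genes included 3 of the iron list and 2 of the jasmonate list. All 76 genes had an edgeR adjusted p of 0.644, while DESeq2 called 25 of the 43 and 24 of the 33. Just inside the limit lay NEET, at a distance of 1.51-fold on the higher side, and LAS1, at 1.504-fold on the lower side. Just outside lay MLP328, at 1.49-fold on the higher side, and JRG21, at 1.49-fold on the lower side.

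The 12 most widely separated higher genes are given one by one. AT1G05250, a class III peroxidase gene, had 13.7 CPM in T31-5 and 13.6 CPM in T43-11, against 1.84 CPM in Col-0 and 4.18 CPM in the empty vector line, a log2 difference of 2.08 ± 0.30 (SE of the edgeR fit, as below). The proline-rich extensin-like gene AT4G08410 had 15.6 and 14.1 CPM in these 3F-VP16 lines, against 1.38 and 4.41 CPM in Col-0 and the empty vector line, a difference of 2.23 ± 0.40. EXT6 (AT2G24980), an extensin gene, had 19.0 and 16.9 CPM in T31-5 and T43-11, against 1.38 and 6.01 CPM in the 2 controls. In all 3 the 3F-VP16 lines were nearly level, and the empty vector line stood between them and Col-0.

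PRP3 (AT3G62680), a proline-rich wall protein gene of root hairs, had 12.2 CPM in T31-5 and 12.6 CPM in T43-11, against 0.692 CPM (9 reads) in Col-0 and 4.27 CPM in the empty vector line. RHS19 (AT5G67400), a peroxidase gene named for its root hair specific transcript, had 12.2 and 13.6 CPM in the 3F-VP16 lines, against 1.77 and 4.59 CPM in Col-0 and the empty vector line, a log2 difference of 1.92 ± 0.35. The arabinogalactan protein gene AGP3 (AT4G40090) had 10.2 and 8.79 CPM in T31-5 and T43-11, against 1.15 and 3.21 CPM in the controls. The same order of libraries held in the extensin gene EXT13 (2.14 ± 0.43), the extensin-like gene AT5G06630 (2.12 ± 0.50), the peroxidase genes AT4G26010 (2.05 ± 0.41) and AT3G49960 (2.04 ± 0.45), and the pectin methylesterase inhibitor superfamily gene AT5G04960 (2.34 ± 0.50). Several of these genes have near-identical neighbours, such as AT1G05240 and AT1G05250 or AT4G08400 and AT4G08410, and reads may be split between them.

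RD29B (listed as LTI65, AT5G52300), a gene induced by abscisic acid and drying, was the one gene of the 12 that does not encode a wall protein, a peroxidase or a pectin methylesterase inhibitor family member. It had 11.96 CPM in T31-5 and 6.76 CPM in T43-11, against 2.54 CPM in Col-0 and 1.74 CPM in the empty vector line, a log2 difference of 2.13 ± 0.37. Here the 2 controls were close, and T31-5 was above T43-11.

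**Figure D2:**
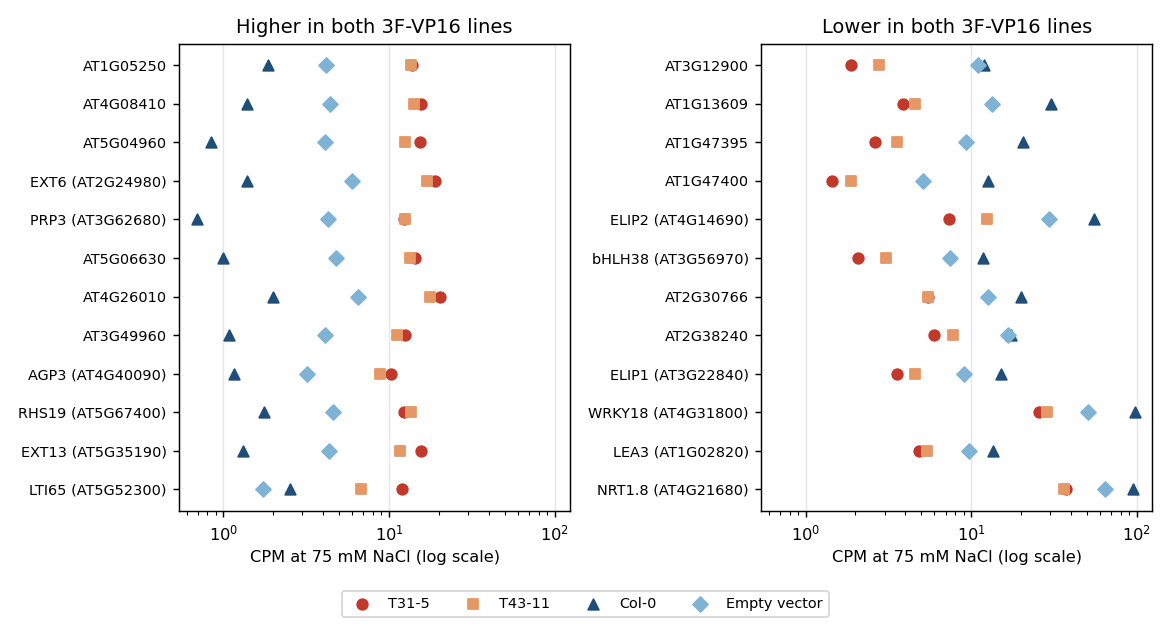
CPM at 75 mM NaCl (x axis, log scale) of the 12 most widely separated genes in each direction (y axis), with 1 point for each of the 4 libraries. On the left AT1G05250 has 13.7 and 13.6 CPM in the 3F-VP16 lines against 1.84 and 4.18 CPM in the controls, and on the right AT3G12900 has 1.88 and 2.79 CPM against 11.9 and 10.9 CPM.

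Across the list of root hair regulators and wall genes, every member lay higher in the 3F-VP16 lines. All 15 members had no overlap between the groups, and 10 of them were at least 1.5-fold apart. Not all were expressed: 10 of the 15 averaged below 5 CPM, with 1 to 24 reads in Col-0, the library of lowest depth. No share over all genes was counted at that level. All 5 expressed members were higher, where 24.4% of all expressed genes were higher without overlap and 18.8% lower. LRX1, 1 of the 5, is also on the list of extensins. With 5 expressed members, the count of the root hair list is not read as a result about the list, as for the small lists below. The list was chosen with earlier results of these data known, which can favour such a count. The median log2 difference of the list was 1.91, beside 0.00 over all genes tested, and edgeR called 0 members and DESeq2 4. Their summed level was 93.6 CPM in T31-5 and 90.9 CPM in T43-11, against 14.6 CPM in Col-0 and 39.9 CPM in the empty vector line. Among the 5 expressed members the median log2 ratio to the empty vector line was 1.35 in T31-5 and 1.32 in T43-11, and the empty vector line was itself 1.17 above Col-0. The control lines thus differed by nearly as much as the 3F-VP16 lines differed from the nearer control.

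The members differed in size. RHS18 (AT5G22410), a peroxidase gene, had 2.45 and 2.50 CPM in T31-5 and T43-11, against 0.384 and 0.688 CPM in Col-0 and the empty vector line, a log2 difference of 2.09 ± 0.35. The wall protein gene PRP1 (AT1G54970) had 3.11 and 3.40 CPM in the 3F-VP16 lines, against 0.154 CPM (2 reads) in Col-0 and 0.872 CPM in the empty vector line. LRX1 (AT1G12040), a leucine-rich repeat extensin needed for root hair wall formation, had 9.42 and 8.18 CPM, against 0.846 and 3.40 CPM in Col-0 and the empty vector line. COW1 (AT4G34580), a phosphatidylinositol transfer protein of hair tip growth, had 10.4 CPM in both 3F-VP16 lines, against 3.15 and 6.38 CPM in the controls. RHD6 (AT1G66470), which starts hair formation, had 1.84 and 2.55 CPM in T31-5 and T43-11, against 1.38 and 1.79 CPM in the controls, a log2 difference of 0.41 ± 0.31. RSL4 (AT1G27740), which drives hair growth, had 1.05 and 1.28 CPM, against 0.538 and 0.826 CPM (0.68 ± 0.38). Their relative RSL2 (AT4G33880), also a transcription factor gene, had 3.42 and 2.65 CPM, against 0.769 and 1.84 CPM (1.11 ± 0.39), a difference above that of COW1 (1.05 ± 0.29). LRX1, COW1, RHD6, RSL4 and RSL2 were picked from the list after their values were seen.

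Of the 56 genes whose product names an extensin, 30 were expressed. Of these 16 were higher without overlap (background 24.4%), 6 lower (18.8%) and 8 overlapping. The product names also took in Pollen Ole e 1 allergen and extensin family genes and proline-rich extensin-like receptor kinases. Of the Pollen Ole e 1 family, AT4G17215 and AT5G54855 are among the 16 higher, and AT1G78040, AT2G16630, AT3G16670 and AT5G41050 among the 6 lower. EXT11 (AT5G49080), among the 43 higher genes, is left out, so the counts describe a mixed list. The median log2 difference of the list over 42 tested members was 0.32, with 0 called by edgeR, and 5 higher and 1 lower called by DESeq2. The members with the highest counts did not move together. EXT3 (AT1G21310), needed for the cell plate and for wall self-assembly, had 1108 and 1063 CPM in T31-5 and T43-11, against 466 and 865 CPM in Col-0 and the empty vector line. EXT4 (AT1G76930), a stress-inducible extensin gene, had 1174 and 1519 CPM, against 3137 and 2052 CPM in these controls, a log2 difference of -0.99 ± 0.26. EXT3 and EXT4, like the hydroxyproline-rich glycoprotein gene HRGP1 next, were singled out after their values were seen. HRGP1 (AT3G54590), which is outside the list, had 62.0 and 58.4 CPM, against 8.61 and 25.7 CPM in Col-0 and the empty vector line.

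The list of class III peroxidases was made from the RefSeq product name. It leaves out AT4G30170, RHS18, RHS19 and PA2, and it includes DOX1, an alpha-dioxygenase gene. PA2 (AT5G06720), a peroxidase gene among the 33 lower ones, had 3.33 and 4.21 CPM in T31-5 and T43-11, against 7.15 and 6.70 CPM in Col-0 and the empty vector line (-0.91 ± 0.21). AT4G30170, among the 43 higher ones, had 80.4 and 75.6 CPM, against 21.9 and 45.2 CPM in these controls (1.17 ± 0.29), and both were picked after their values were seen. Of the 67 genes on the list, 39 were expressed. Of these 19 were higher without overlap (background 24.4%), 5 lower (18.8%) and 15 overlapping. The median log2 difference was 0.44 over 56 tested members, with 0 called by edgeR and 6 higher by DESeq2. Besides AT1G05250 and AT4G26010, AT1G05240 had 13.1 and 11.1 CPM in T31-5 and T43-11, against 1.999 and 4.54 CPM in Col-0 and the empty vector line. AT5G17820 had 42.0 and 34.1 CPM, against 16.5 and 22.03 CPM (0.94 ± 0.15). Col-0 was the lowest library at 32 of the 39 members, and the median log2 ratio of the empty vector line to Col-0 was 0.70, beside 0.17 for T31-5 and 0.14 for T43-11 over the empty vector line.

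Markers of the root as a whole are set beside these counts. Of 12 root markers, of which RHD6 is also a root hair gene, 6 were expressed. Of these 4 were higher without overlap in the 3F-VP16 lines (background 24.4%), 0 lower (18.8%) and 2 overlapping, with none 1.5-fold apart. The summed level of all 12 was 2518 CPM in T31-5 and 2280 CPM in T43-11, against 1658 CPM in Col-0 and 2136 CPM in the empty vector line, and most of it came from the root glucosidase gene PYK10. CASP1 (AT2G36100), which organises the Casparian strip of the endodermis, had 13.5 and 13.7 CPM, against 3.31 and 9.82 CPM in these controls, whereas the root radial-pattern gene SCR had 41.3 and 38.3 CPM, against 45.8 and 39.9 CPM. In RNA of whole plants, more cells of a type and more RNA per cell cannot be told apart. The part of root content in the differences of root hair genes was not tested. Of 5 seed storage markers 0 reached the level of testing, and 2 had 0 reads in all 4 libraries.

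The 5 most widely separated lower genes were AT3G12900, AT1G13609, AT1G47395, AT1G47400 and ELIP2, none of them on a gene list here. The lists are not complete, so this does not place these genes outside the iron response or other listed processes. AT3G12900, which encodes a 2-oxoglutarate and Fe(II)-dependent oxygenase, had 1.88 CPM in T31-5 and 2.79 CPM in T43-11, against 11.9 CPM in Col-0 and 10.9 CPM in the empty vector line. Its log2 difference was -2.32 ± 0.24, it had the smallest unadjusted p of the 76 separated genes, and its control libraries were level. The defensin-like gene AT1G13609 had 3.90 and 4.58 CPM in the 3F-VP16 lines, against 30.3 and 13.3 CPM in Col-0 and the empty vector line (-2.38 ± 0.45). The neighbouring genes AT1G47395 and AT1G47400, which RefSeq names only as uncharacterized proteins, had differences of -2.30 ± 0.45 and -2.42 ± 0.52. AT2G30766, also named only as uncharacterized in RefSeq, had 5.48 CPM in both 3F-VP16 lines, against 19.99 and 12.7 CPM in Col-0 and the empty vector line.

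Most of the iron deficiency list lay lower in the 3F-VP16 lines. Of 18 members 13 were expressed, and of these 8 were lower without overlap (background 18.8%), 2 higher and 3 overlapping. The median log2 difference over 17 tested members was -0.58, with 0 called by edgeR and 3 lower by DESeq2. bHLH38 (AT3G56970), a transcription factor of the iron deficiency response, had 2.06 CPM in T31-5 and 3.07 CPM in T43-11, against 11.8 CPM in Col-0 and 7.48 CPM in the empty vector line (-1.94 ± 0.34). OPT3 (AT4G16370), a phloem transporter that signals shoot iron status, had 104 and 118 CPM in the 3F-VP16 lines, against 291 and 182 CPM in these controls (-1.14 ± 0.25). IRT1 (AT4G19690), the main iron uptake transporter of roots, had 82.7 and 98.5 CPM, against 120 and 145 CPM (-0.58 ± 0.12). The nicotianamine synthase gene NAS4 (AT1G56430) had 2.67 and 3.45 CPM, against 6.76 and 6.10 CPM (-1.10 ± 0.23). In these 4 genes the groups did not overlap, and the gap was narrowest in IRT1.

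The relatives of bHLH38 had the same order, and these members were picked after their values were seen. bHLH39 (AT3G56980) had 5.00 and 5.62 CPM in T31-5 and T43-11, against 17.8 and 9.18 CPM in Col-0 and the empty vector line (-1.36 ± 0.36). BHLH100 had a log2 difference of -1.63 ± 0.43 and BHLH101 of -1.74 ± 0.52. FRO2 (AT1G01580), the root ferric chelate reductase, had 61.3 and 66.4 CPM, against 79.4 and 107 CPM in these controls (-0.58 ± 0.13). BTS (AT3G18290), a ubiquitin ligase that restrains iron uptake, had 172 and 177 CPM, against 300 and 228 CPM. CYP82C4 (AT4G31940), a P450 of coumarin synthesis outside the list, had 35.5 and 40.6 CPM, against 66.5 and 85.9 CPM (-1.04 ± 0.13).

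The pattern was not uniform among iron genes. FRU (AT2G28160), the master regulator FIT of root iron uptake, had 17.7 and 18.19 CPM in the 3F-VP16 lines, against 12.8 and 18.5 CPM in Col-0 and the empty vector line, so that the groups overlapped. The plasma membrane proton pump gene HA7 (AT3G60330) had 11.3 and 10.7 CPM, against 5.23 and 8.49 CPM (0.62 ± 0.21), and the citrate exporter gene FRD3 (AT3G08040) had 14.5 and 13.7 CPM, against 8.23 and 11.9 CPM (0.44 ± 0.17). Outside the list, FRO4 (AT5G23980), a copper-reducing member of the FRO family, had 24.7 CPM in T31-5 and 13.1 CPM in T43-11, against 3.07 CPM in Col-0 and 6.93 CPM in the empty vector line (1.83 ± 0.42). ZIP2 (AT5G59520), a divalent metal transporter gene, had 32.0 and 24.6 CPM, against 8.69 and 15.9 CPM in these controls (1.14 ± 0.26). FRU, HA7, FRD3, FRO4 and ZIP2 were likewise picked after their values were seen.

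ELIP2 and 5 others of the 12 most widely separated lower genes were of mixed function. ELIP2 (AT4G14690), an early light-induced protein that protects chloroplasts, had 7.32 CPM in T31-5 and 12.4 CPM in T43-11, against 55.1 CPM in Col-0 and 29.6 CPM in the empty vector line (-2.14 ± 0.40). Its relative ELIP1 (AT3G22840) had 3.55 and 4.58 CPM, against 15.2 and 9.04 CPM in these controls (-1.60 ± 0.32). WRKY18 (AT4G31800), a defence transcription factor gene, had 25.7 and 28.7 CPM, against 97.1 and 50.5 CPM (-1.48 ± 0.33). The root nitrate unloading transporter gene NRT1.8 (AT4G21680) had 37.3 and 36.2 CPM, against 94.4 and 64.6 CPM (-1.15 ± 0.21). The oxygenase gene AT2G38240 had 5.96 and 7.80 CPM in the 3F-VP16 lines, against 17.3 and 16.8 CPM (-1.34 ± 0.17), with level controls. LEA3 (AT1G02820), a late embryogenesis abundant family gene, had 4.86 and 5.39 CPM, against 13.5 and 9.64 CPM (-1.20 ± 0.23).

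Jasmonate genes were mostly lower as well. Of 22 listed genes 18 were expressed, and of these 11 were lower without overlap (background 18.8%), 1 higher (24.4%) and 6 overlapping. The median log2 difference over 20 tested members was -0.49, with 0 called by edgeR and 2 lower by DESeq2. Both members separated by 1.5-fold were AOC1 and JAZ10. AOC1 (AT3G25760), an allene oxide cyclase gene, had 36.1 and 38.1 CPM in T31-5 and T43-11, against 76.7 and 60.1 CPM in Col-0 and the empty vector line (-0.92 ± 0.15). The lipoxygenase gene LOX2 (AT3G45140) had 749 and 809 CPM in the 3F-VP16 lines, against 1174 and 1109 CPM in these controls (-0.59 ± 0.10). JAZ10 (AT5G13220), a repressor of jasmonate responses, had 5.61 and 5.77 CPM, against 13.5 and 9.59 CPM (-1.04 ± 0.22). LOX3 had a difference of -0.63 ± 0.12 and AOC2 of -0.54 ± 0.11. The transcription factor gene MYC2 had 32.6 and 34.4 CPM, against 32.7 and 34.8 CPM, so that the groups overlapped. The response gene VSP2 had 134 and 163 CPM, against 33.98 and 143 CPM, with Col-0 far below the other 3 libraries. JAZ10, MYC2 and VSP2 were picked after their values were seen.

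**Figure D3:**
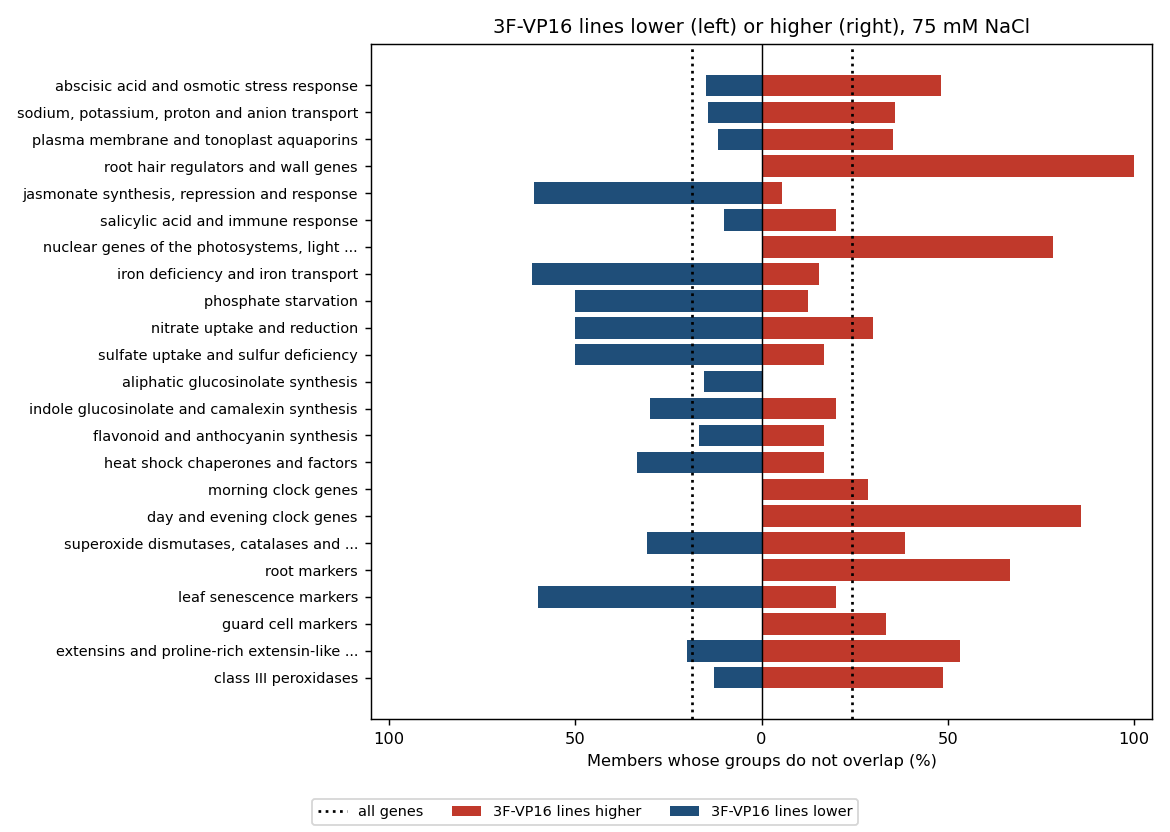
Share of each gene list with 3 or more expressed members (y axis) in % of those members (x axis) whose 2 groups of libraries do not overlap, with 3F-VP16 lines lower to the left and higher to the right of 0. Dotted lines mark the shares over all 14909 genes, 18.8% lower and 24.4% higher. The lists of root hair genes (5 of 5 higher), iron genes (8 of 13 lower) and jasmonate genes (11 of 18 lower) pass them. Other lists pass them too, such as photosynthesis (18 of 23 higher), root markers (4 of 6 higher) and nitrate genes (5 of 10 lower). So do day and evening clock genes (6 of 7 higher) and senescence markers (3 of 5 lower).

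The median differences of the abscisic acid and salt transport lists were small, with single members further apart. The list for abscisic acid and osmotic stress held 33 genes, of which 27 were expressed, and of these 13 were higher without overlap and 4 lower, with a median log2 difference of 0.19 over 32 tested members. After TMM scaling the split was 9 and 4. Over all expressed genes the shares were 24.4% higher and 18.8% lower, or 19.7% and 23.5% after TMM scaling. RD29B, described above, was the member furthest apart (2.13 ± 0.37) and the only one of the 27 separated by 1.5-fold. DESeq2 called 1 member of the list higher, RD29B, and 0 lower. RAB18 (AT5G66400), a dehydrin gene, had 22.3 and 20.1 CPM in the 3F-VP16 lines, against 12.5 and 14.1 CPM in the controls (0.63 ± 0.10). NAC019, a stress transcription factor gene, had 2.94 and 3.40 CPM, against 5.92 and 7.66 CPM (-1.14 ± 0.21), and NAC055 (listed as NAC3) had a difference of -0.65 ± 0.12. RD29A (listed as LTI78), the neighbour of RD29B, had 35.6 and 54.7 CPM, against 34.4 and 41.3 CPM (0.22 ± 0.22), and the proline synthesis gene P5CS1 had 702 and 838 CPM, against 623 and 699 CPM. RD29A and P5CS1 were picked after their values were seen.

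Among 20 ion transport genes 14 were expressed, of which 5 were higher without overlap and 2 lower, with a median of 0.20 over 19 tested members. Over all expressed genes 24.4% were higher without overlap and 18.8% lower. These small counts, like those of the aquaporins below, are not read as results about the lists. The sodium exporter gene SOS1 had 38.2 and 34.7 CPM in T31-5 and T43-11, against 39.9 and 33.8 CPM in Col-0 and the empty vector line (-0.05 ± 0.12). The sodium transporter gene HKT1 had 3.77 and 2.74 CPM, against 1.999 and 2.98 CPM (0.33 ± 0.29), and the vacuolar antiporter gene NHX1 had 82.2 and 78.9 CPM, against 84.6 and 76.0 CPM (-0.03 ± 0.10). In these 3 salt transport genes, picked for their role after their values were seen, the groups overlapped. The proton pump gene HA2 had 638 and 551 CPM, against 327 and 494 CPM in these controls (0.50 ± 0.18), and the root potassium channel gene KT1 (AKT1) had a difference of 0.34 ± 0.10. SKOR, a channel that loads potassium into the xylem, had 1.84 and 1.65 CPM, against 0.922 and 0.734 CPM (1.07 ± 0.33), and the antiporter gene NHX2 had 0.27 ± 0.14. Of 19 aquaporin genes 6 of 17 expressed ones were higher and 2 lower (median -0.00), with TIP4;1 at 1.04 ± 0.35, PIP2;4 at 0.79 ± 0.36, PIP2B at 0.21 ± 0.08 and DELTA-TIP at 0.20 ± 0.09.

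Most photosynthesis genes lay slightly higher in the 3F-VP16 lines. Over all expressed genes 24.4% were higher without overlap and 18.8% lower. Of 23 nuclear genes of the photosystems, light harvesting and carbon fixation, 18 were higher without overlap, 0 lower and 5 overlapping, at a median log2 difference of 0.17. Their summed level was 73450 CPM in T31-5 and 74680 CPM in T43-11, against 65070 CPM in Col-0 and 69960 CPM in the empty vector line. The photosystem I gene PSAF had a difference of 0.29 ± 0.10, the photosystem II gene PSBQ-2 0.31 ± 0.12, and the light-harvesting genes LHCB3 0.28 ± 0.12 and LHCA3 0.23 ± 0.09. Of 9 day and evening clock genes 7 were expressed and 6 of these were higher without overlap, or 3 after TMM scaling, with GI at 0.31 ± 0.14 and PRR5 at 0.42 ± 0.21. The median of this list was 0.14, that of 7 morning clock genes, of which 2 were higher, was -0.02, and RVE1 had 0.23 ± 0.08.

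Phosphate, nitrate and sulfur lists held members on both sides. Over all expressed genes 24.4% were higher without overlap and 18.8% lower, or 19.7% and 23.5% after TMM scaling. The lists hold few expressed genes, and their counts are not read as results about the lists. Of 8 expressed phosphate starvation genes 4 were lower without overlap and 1 higher (median -0.57 over 11 tested). SPX1, a phosphate sensor gene, was at -0.84 ± 0.25 and the sulfolipid gene SQD1 at -0.57 ± 0.16, while the root transporter gene PHT1;1 was at 0.39 ± 0.11. The non-coding transcript IPS1 had 0.570 and 1.13 CPM in T31-5 and T43-11, against 3.998 and 2.71 CPM in Col-0 and the empty vector line. Of 10 nitrate genes 3 were higher and 5 lower (median -0.18 over 11 tested), the nitrite reductase gene NIR1 at 0.56 ± 0.12 and the nitrate reductase gene NIA2 at -0.58 ± 0.23. DESeq2 called 1 member of the nitrate list lower, NRT1.8. Of 6 sulfur deficiency genes 1 was higher and 3 lower (median -0.30 over 10 tested), with LSU2 at -0.77 ± 0.20.

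The remaining lists are given over their expressed members. Beside them stand the shares over all expressed genes, 24.4% higher without overlap and 18.8% lower. These lists are small, and their counts are not read as results about the lists. Aliphatic glucosinolate genes were lower at 2 of 13 and higher at 0 (median -0.10), with CYP79F2 at -0.58 ± 0.11. Indole glucosinolate and camalexin genes were lower at 3 of 10 and higher at 2 (median -0.03), with the camalexin gene CYP71A13 at -1.30 ± 0.29. Salicylic acid and immune genes were higher at 2 of 10 and lower at 1 (median 0.08). Flavonoid genes were higher at 1 of 6 and lower at 1 (median -0.12), and heat shock genes higher at 1 of 6 and lower at 2 (median -0.37). Genes of superoxide dismutases, catalases and ascorbate peroxidases were higher at 5 of 13 and lower at 4 (median -0.02), the copper/zinc enzymes CSD1 and CSD2 being at -0.45 ± 0.10 and -0.51 ± 0.13 and the iron enzyme FSD1 at 0.28 ± 0.08. Senescence markers were lower at 3 of 5 and higher at 1 (median -0.33), with SAG13 at -0.77 ± 0.17, and guard cell markers higher at 1 of 3 (median 0.19). Of 7 flower markers only PI, a petal and stamen identity gene, was expressed at that level, with 2.58 and 5.29 CPM in T31-5 and T43-11, against 14.8 and 8.26 CPM in Col-0 and the empty vector line. As edgeR called 0 genes of all tested, it could call 0 members of these lists. DESeq2 called 1 senescence marker lower, SAG13, and 1 flower marker lower, PI, and 0 members of the other lists of this paragraph.

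Scaling changed the direction with more genes. With reads scaled to library totals, 24.4% of the 14909 genes were higher without overlap and 18.8% lower, whereas after TMM scaling 19.7% were higher and 23.5% lower. The count of root hair genes (5 higher), of iron genes (2 higher, 8 lower) and of jasmonate genes (1 higher, 11 lower) was the same on both scales.

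The separated genes were also read in the libraries labelled 0 mM, under the limit on those labels given above. At 0 mM NaCl 2 of 14606 genes were separated by 1.5-fold on the higher side (0.0137%) and 0 on the lower side (0%), and none of these was among the 43 or the 33. Without salt, T31-5 lay within 1.5-fold of the empty vector line at all 43 higher genes and at 31 of the 33 lower genes. T43-11 at 0 mM lay within 1.5-fold of T43-11 at 75 mM at all 43 and all 33, as 0 of the 14909 genes were 2-fold apart between these 2 libraries. Over the 43 higher genes, the median log2 ratio to the 75 mM controls was 1.65 in T31-5 and 1.46 in T43-11 at 75 mM, against -0.62 in Col-0 and 0.43 in the empty vector line. At 0 mM it was 0.43 in T31-5 and 1.55 in T43-11, against -0.26 in Col-0 and 0.37 in the empty vector line.

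These values rest on single libraries and carry no test. The difference between T31-5 and T43-11 at 0 mM over the 43 genes rests on the libraries whose labels are in doubt, and mislabelled libraries and line differences cannot be told apart here. With salt T31-5 was at least 1.5-fold above its own 0 mM library at 38 of the 43 higher genes. The empty vector line was so at 7 and Col-0 at 2. The 43 and 33 genes were chosen by their levels in these same libraries with salt. That choice favours a rise with salt in T31-5 at the higher genes and in the controls at the lower genes. The share of all genes with such a rise was not counted for any line. The counts of both sets are therefore not read as a line-specific salt response. RHS19 in T31-5 had 12.2 CPM with salt and 4.69 CPM without, and in T43-11 13.6 and 13.1 CPM, against 1.77 and 2.50 CPM in Col-0 and 4.59 and 3.75 CPM in the empty vector line. Among the 33 lower genes, the controls were mostly higher with salt, Col-0 by at least 1.5-fold at 26 and the empty vector line at 25, while T31-5 was so at 13. bHLH38 in T31-5 had 2.06 CPM with salt and 1.66 CPM without, and in T43-11 3.07 and 3.75 CPM, against 11.8 and 1.76 CPM in Col-0 and 7.48 and 1.93 CPM in the empty vector line.

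**Figure D4:**
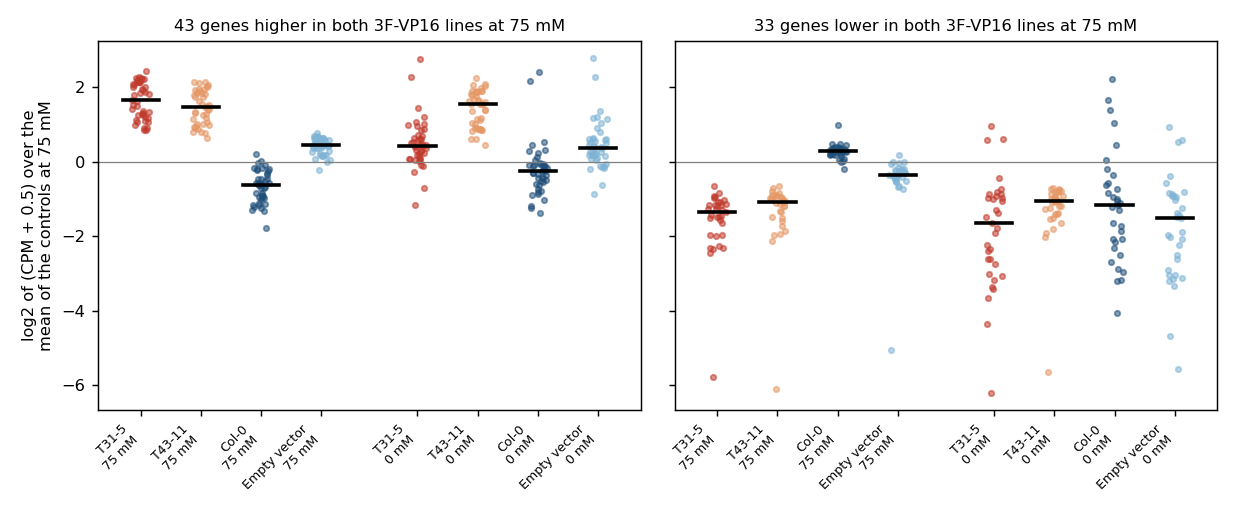
log2 ratio of CPM + 0.5 to the mean of the 2 controls at 75 mM (y axis) for each of the 43 higher and 33 lower genes (points) in all 8 libraries (x axis), with the median as a bar. On the left the medians at 75 mM are 1.65 and 1.46 in T31-5 and T43-11 against -0.62 and 0.43 in Col-0 and the empty vector line, and at 0 mM T31-5 (0.43) and the empty vector line (0.37) are level.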

How the data were processed

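The authors deposited raw counts of reads per gene, 1 table per library, made with TopHat2 2.0.5 and HTSeq on TAIR10, per the submitters' processing notes. The sources used here give neither the counting mode nor the strand setting, so overlapping and antisense genes cannot be told apart. Rows starting with AT (32678 genes) made up the library totals. The 5 summary rows, 2.49 to 2.52% of reads at 75 mM, and the rows T31 and T43 were left out. Names came from RefSeq TAIR10.1, in which 97.7% of identifiers matched.

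The test was edgeR 4.0.16 (R 4.3.3; TMM, robust quasi-likelihood fit, Benjamini-Hochberg adjustment, threshold 0.05) on the 4 libraries and on genes with at least 0.5 CPM in at least 2 of them, with 2 residual degrees of freedom. The p-values then reflect the spread among these 4 libraries alone. Each library is a different line, so this spread takes in line differences within each group as well as technical spread. DESeq2 1.42.0 was an alternative. The fit was also run on simulated counts, drawn with the same spread for every gene and no line differences within a group. That run lacks the difference between Col-0 and the empty vector line, so it does not bear on the counts of called genes. Separation used CPM + 0.5 and genes averaging 5 CPM or more. SE is the absolute log2 fold change over the square root of F.

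In each direction the 12 passing genes with the largest change were to be named, filled up by the widest gap between the groups (all 12 here), and in each list up to 4 members with the smallest p. The 25 lists (23 by identifier, the extensins and peroxidases by RefSeq product) and the comparison were chosen with earlier results of these data known. No list was tested as a set, and the counts of all lists, of any size, are descriptions. Python 3.11.15, pandas 2.3.3, scipy 1.17.1 and matplotlib 3.10.9 were used.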

Additional observations from a re-analysis of the deposited data

Results flagged for a closer look

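The added rows T31 and T43 do not carry Arabidopsis gene identifiers, and Col-0 had 0 reads on both at 75 mM. T43 reached 33.6 CPM in T43-11. T31 reached 27.7 CPM in T43-11 and 2.94 CPM in T31-5, against 3.12 CPM in the empty vector line.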

How the results depend on the processing

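The counts of 0 genes in edgeR became 31 higher and 49 lower in DESeq2, and were 0 to 1487 higher and 0 to 1435 lower when 1 library was left out (22 and 15 without Col-0). They stayed at 0 with RLE factors, library totals, no filter, a 5 CPM filter, no robust options and all 8 libraries. The 43 higher and 33 lower separated genes became 107 and 67 at a mean of at least 1 CPM, 10 and 10 at 20 CPM, and 21 and 8 at a 2-fold gap, and were 46 to 882 and 37 to 350 when 1 library was left out (112 and 119 without T43-11, 882 and 350 without the empty vector line). All 43 and all 33 remained when any 1 library was left out and at 1 CPM. These settings can only add genes, so this carries no information on stability. With TMM scaling 42 and 31 were shared, and with a pseudocount of 2 CPM 38 and 22 (38 and 22 genes separated). Fold changes kept their sign in all settings at 134 named genes except 7. With 1 library left out FMO GS-OX1 ranged from -0.38 to 0.03, RVE8 from -0.19 to 0.06, AT5G64170 from -0.02 to 0.11, AT1G22690 from -0.21 to 0.03, SOS1 from -0.21 to 0.11, NHX1 from -0.15 to 0.08 (0.01 with library totals) and RD29A (LTI78) from -0.14 to 0.51. The causes were not tested. No paired analysis was possible because the labels carry no replicate numbers shared by the groups. A fit without 1 library leaves an arm with 1 sample, assumed to vary like the other arm. Col-0 had the lowest depth, which limits genes of few reads there.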

Other observations

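AT3G01345, a gene of uncharacterized product, had 0.307 CPM in T31-5 and 0.142 CPM in T43-11 at 75 mM, against 86.0 CPM in Col-0 and 0.826 CPM in the empty vector line. At 0 mM it had 0.0920 and 0.375 CPM in T31-5 and T43-11, against 137 and 0.428 CPM in Col-0 and the empty vector line. All 6 transgenic libraries were low and both Col-0 libraries high, so its place among the 33 lower genes rests on Col-0 and on differences of a few reads from the empty vector line. It was singled out after its values were seen.

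The transcription factor gene DREB26 (AT1G21910) had 42.0 and 44.7 CPM in T31-5 and T43-11, against 119.5 and 68.9 CPM in Col-0 and the empty vector line (log2 difference -1.16 ± 0.28). The wall enzyme genes XTH14 (AT4G25820) and GH9C1 (AT1G48930) had differences of 1.89 ± 0.50 and 1.40 ± 0.36, and each of these 3 genes was picked after its values were seen.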
